A study of Mus musculus with 6 samples.

Results

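Ptgir, the gene of the prostacyclin receptor, was examined in NSC-34 cells together with the other genes of a small prostanoid set. The set holds 10 of the 23038 genes listed in each library and was picked by name: the prostacyclin receptor (Ptgir), the prostaglandin E2 receptors (Ptger1, Ptger2, Ptger3 and Ptger4), the cyclooxygenases (Ptgs1 and Ptgs2), the inducible prostaglandin E synthase (Ptges), and the phospholipases A2 Pla2g2e and Pla2g4a. The 10 names were chosen by how these same libraries read out, with the lower values of Ptgir and some of the others after Qk knockdown already known, so the differences of these genes between the groups are a description and carry no test. NSC-34 is a mouse hybrid of a neuroblastoma line and embryonic spinal cord motor neurons, and it was grown in DMEM with 10% fetal calf serum. Poly-A RNA was sequenced from 3 libraries of cells transfected with control siRNA (siNC) and 3 libraries of cells transfected with siRNA against Qk (siQk), the gene of the RNA-binding protein Quaking. The siQk cells were given 3 different siRNAs, the labels do not say which library received which, and all 6 libraries come from the same line at a single collection time.

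Prostanoids are short-lived lipid signals. A phospholipase A2 frees arachidonic acid from membrane phospholipids, a cyclooxygenase turns it into prostaglandin H2, and terminal synthases turn that into prostaglandin E2, prostacyclin, thromboxane and the other prostanoids. Each of these is read by G protein-coupled receptors at the cell surface: the prostacyclin receptor and the products of Ptger2 and Ptger4 couple mainly to Gs and raise cyclic AMP, the product of Ptger3 couples mainly to Gi and lowers it, and the product of Ptger1 raises intracellular calcium. In the nervous system these lipids are known for inflammation, fever and the sensitisation of pain neurons.

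Of the 6 genes with a count in every library, those with lower mean values in siQk were Ptgir, Pla2g2e and Ptgs1, the last with groups that overlapped, and the DNA just before their start sites is shown so that their promoters can be set side by side. Of the 10 genes, 9 (all but Ptger1) were matched in the RefSeq promoter table for GRCm38.p6. The windows are the 250 bases before the start, 5′ to 3′ on the strand of the gene: Ptgir at chr7:16906240-16906489, Pla2g2e at chr4:138877692-138877941 and Ptgs1 at chr2:36230176-36230425, all on the plus strand. Capitals mark E-box letters (CANNTG) and GC-box letters (GGGCGG or its reverse complement CCGCCC). Searches on both strands were also made for the cyclic AMP response element (TGACGTCA) and for a TATA box (TATAAA or TTTATA).
Ptgir: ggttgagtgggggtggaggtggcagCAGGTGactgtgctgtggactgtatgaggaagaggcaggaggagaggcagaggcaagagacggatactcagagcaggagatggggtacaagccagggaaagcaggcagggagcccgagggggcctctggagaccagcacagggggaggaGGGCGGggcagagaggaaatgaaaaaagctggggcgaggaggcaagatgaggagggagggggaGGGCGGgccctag
Pla2g2e: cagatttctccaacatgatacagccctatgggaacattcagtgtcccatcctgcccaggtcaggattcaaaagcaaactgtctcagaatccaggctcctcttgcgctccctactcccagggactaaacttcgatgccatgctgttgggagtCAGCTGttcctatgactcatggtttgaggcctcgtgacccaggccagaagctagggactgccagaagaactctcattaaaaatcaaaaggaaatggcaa
Ptgs1: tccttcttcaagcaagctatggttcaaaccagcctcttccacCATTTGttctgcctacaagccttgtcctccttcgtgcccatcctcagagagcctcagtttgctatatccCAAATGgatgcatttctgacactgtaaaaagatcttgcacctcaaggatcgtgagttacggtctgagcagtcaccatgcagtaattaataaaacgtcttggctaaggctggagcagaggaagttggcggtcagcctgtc

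The Ptgir window was 63.6% G and C and held 1 E-box and 2 GC-box matches. The Pla2g2e window was 49.6% G and C with 1 E-box match, and the Ptgs1 window was 48% G and C with 2 E-box matches. No window of these 3 held the cyclic AMP response element or either TATA form. Among 27025 promoter windows of the same length, 66.0% held the E-box letters, 32.9% the GC-box letters, 1.62% the cyclic AMP response element and 13.0% a TATA form. The E-box was thus the only searched element that all 3 windows shared, and most promoters hold it. It was not particular to these 3 genes, since the windows of Ptges, Ptgs2, Ptger2, Ptger3 and Pla2g4a held it too. The Ptger4 window did not. These matches describe letters and say nothing of binding.

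The libraries summed to 43000503 to 53565950 expected counts, and 16057 to 16516 genes had a count in each. Qk, the target, was at 9.67, 8.18 and 14.9 RPKM in siNC and at 1.39, 1.71 and 1.10 RPKM in siQk, a log2 difference of -3.00 (SE 0.34, adjusted p = 0.0149, edgeR quasi-likelihood test), so every siQk library lay below every siNC library. It was the only gene called among the 12665 tested, and its adjusted p was 0.125 without siNC replicate 1. The study, with edgeR at the same cutoffs, also lists L3hypdh (2810055F11Rik), Daam2 and Snap23 as lower. Neuroblastoma markers were abundant (Hand2 at 162.5 RPKM on average over the 6 libraries), and of 7 pan-neuronal markers 6 were above 1 RPKM on average, with Tubb3 the highest and Stmn2 at 2 counts in all. Of 7 motor neuron markers, 4 were below 1 RPKM on average, among them Chat, the acetylcholine synthase, at 0.0883 RPKM, and Isl1 was highest at 6.69 RPKM. The summed level of the 7 was 10.0 to 11.5 RPKM in siNC and 14.2 to 16.4 RPKM in siQk, with no overlap. Of the 7, 3 were tested and 0 called, and 1 of these 3 (Isl1) was higher with no overlap. Isl1, a motor neuron transcription factor, was at 4.75 to 4.83 RPKM in siNC and 7.80 to 9.63 RPKM in siQk (log2 difference 0.82), and it carried most of the difference in the sum. Chat averaged 0.0509 RPKM in siNC and 0.126 RPKM in siQk from 7 to 35 counts per library. Of the 7, 5 had a higher mean in siQk, among them Slc5a7 with only 12 counts in all. The others were Slc18a3, the vesicular acetylcholine transporter (95.4% of its siNC mean), and Mnx1 (91.9%). Of all 12665 genes tested, 6438 were higher in siQk. The 7 macrophage and microglia markers were all below 1 RPKM on average, with Cx3cr1 at 0 in every library. Their summed level was 1.66 to 2.33 RPKM in siNC and 0.630 to 1.96 RPKM in siQk. The 4 platelet markers summed to 6.03 to 29.1 RPKM in siNC and 14.7 to 18.1 in siQk, the 5 endothelial markers to 7.09 to 12.5 and 6.89 to 8.26, and the 5 fibroblast markers to 3.13 to 5.34 and 0.970 to 2.98, with Lum at 0. The fibroblast sums did not overlap, were lower in siQk as Ptgir was, and were almost all Pdgfrb, a growth factor receptor also found outside fibroblasts (mean 4.01 RPKM in siNC and 2.04 RPKM in siQk), while Col1a1, Col1a2 and Dcn averaged under 0.1 RPKM in both groups. Of all genes tested, 4.07% were lower in siQk with no overlap, and 4.45% were higher with no overlap. The part of these markers in the values of the prostanoid genes was not tested. By the chi-square of counts over genes per degree of freedom, siQk replicate 2 stood at 117.4 to 176.6 from each of the other libraries, siQk replicates 1 and 3 at 21.3 from each other and at 56.4 to 95.9 from the siNC libraries, and the siNC libraries at 100.7 to 146.8 from each other, so the controls were farther from each other than from these 2 siQk libraries. Without siQk replicate 2, the log2 difference was -0.88 for Ptgir and -0.92 for Pla2g2e.

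Ptgir had the highest mean level of the set in both groups, though Ptgs1 was above it in siQk replicate 2, and it had less RNA in every siQk library than in any siNC library. Its level, as reads scaled by exon length and library total (RPKM), was 67.0, 54.0 and 64.6 in siNC replicates 1, 2 and 3. In siQk replicates 1, 2 and 3 it was 33.1, 42.1 and 35.5 RPKM. The highest siQk library, replicate 2, therefore stayed below the lowest siNC library, also replicate 2, and the groups did not overlap. The siNC mean was 61.9 ± 6.94 RPKM (SD, n = 3) and the siQk mean 36.9 ± 4.68 RPKM (SD, n = 3), so siQk held 59.6% of the siNC level. The log2 difference was -0.77 with a standard error of 0.15, and 1.01% of the tested genes had a more negative one. Between 5028 and 11384 counts per library lay behind these values, so counting error was small beside the spread between libraries. In siNC, Ptgir stood at the 94.2 percentile of all listed genes by RPKM. These are bulk libraries, in which fewer cells with the transcript and less of it per cell cannot be told apart.

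Ptgir (Entrez 19222) is protein-coding and lies at chr7:16906490-16910905 on the plus strand of GRCm38, and no exon of another gene overlaps its exons. Its nearest neighbours were read for comparison. Calm3, a calmodulin gene 4474 bases away, was at 372.1 to 432.9 RPKM in siNC and 298.2 to 421.1 RPKM in siQk, and its groups overlapped. Gng8, a G protein gamma subunit gene 11054 bases away, was at 35.6, 24.6 and 22.2 RPKM in siNC and 17.7, 19.3 and 19.8 RPKM in siQk, and its groups did not overlap.

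**Figure D1:**
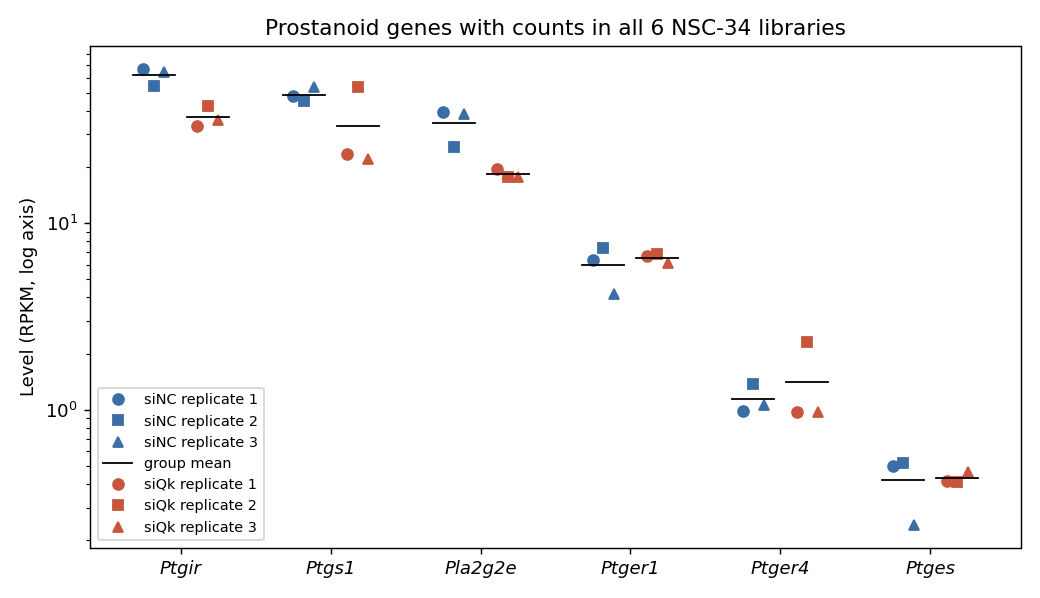
Level of the 6 genes of the set with a count in every library in RPKM (log axis), with 1 point per library, siNC and siQk side by side, and a bar at the group mean. Ptgir and Pla2g2e are the genes whose 3 siQk points all lie under the 3 siNC points, and the siQk points of Ptgs1 spread from 22.1 to 53.5 RPKM.

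Pla2g2e, which encodes a secreted phospholipase A2 and acts at the first step of the pathway, showed the same separation. The siNC libraries read 39.2, 25.7 and 38.4 RPKM. The siQk libraries read 19.6, 17.6 and 17.6 RPKM, close to each other and all below the lowest siNC library, again replicate 2. Averages of 34.4 ± 7.61 RPKM for siNC and 18.3 ± 1.16 RPKM for siQk (SD, n = 3 each) left 53.0% of the siNC level. The log2 difference was -0.95 with a standard error of 0.23, and 0.474% of the tested genes had a more negative one. Counts ran from 707 to 1741 per library. The gene (Entrez 26970) lies at chr4:138877942-138882817 on the plus strand, with no exon shared with another gene. Pla2g5, another secreted phospholipase A2 gene 14460 bases away, was at only 1.20 to 1.83 RPKM in siNC and 0.907 to 1.67 RPKM in siQk, and Otud3, a deubiquitinase gene on the other side at 12562 bases, was at 21.3 to 22.1 and 20.2 to 34.4 RPKM. Both of these neighbours overlapped between the groups.

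Ptgs1 encodes the constitutive cyclooxygenase, COX-1. It was at 48.0, 44.9 and 53.4 RPKM in siNC. The siQk libraries split: replicates 1 and 3 were at 23.6 and 22.1 RPKM, and replicate 2 was at 53.5 RPKM, the highest of all 6 libraries. The groups therefore overlapped, and the siQk mean of 33.1 ± 17.7 RPKM, against 48.8 ± 4.32 RPKM for siNC (SD, n = 3 each), rested on which siQk libraries were counted. The log2 difference was -0.59 (SE 0.42) over all 6 libraries and -1.12 without siQk replicate 2. Which siRNA that library received is not stated in the labels beyond the number in its title. Ptgs1 (Entrez 19224) lies at chr2:36230426-36252272 on the plus strand, and 148 of its 3884 annotated exon bases (3.81%) are also exon of Gm43621. The deposited counts cover a shorter model of 2864 exon bases, and whether it includes the shared bases is not known. Its counts ran from 2920 to 8212 per library.

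Ptgs2, the gene of the inducible cyclooxygenase COX-2, had 0 counts in all 6 libraries, at a floor of 3 counts that corresponds to 0.0135 to 0.0168 RPKM. Pla2g4a, which encodes the calcium-dependent cytosolic phospholipase A2 commonly coupled to the cyclooxygenases, had 1 count, in siQk replicate 2. COX-1 was hence the only cyclooxygenase whose transcript was detected at this depth, and neither gene could be compared between groups.

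The prostaglandin E2 receptors were low beside Ptgir. Ptger1 was at 6.37, 7.39 and 4.18 RPKM in siNC and at 6.63, 6.85 and 6.10 RPKM in siQk, so the siQk libraries lay inside the siNC range (log2 difference 0.11, SE 0.22). The gene (Entrez 19216) lies at chr8:83666678-83672753 on the plus strand. The library kit keeps no strand, so reads from an overlapping gene on the other strand would count here too, and the level of Ptger1 is uncertain.

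Ptger4 was at 0.982, 1.38 and 1.06 RPKM in siNC and at 0.976, 2.30 and 0.980 RPKM in siQk. The high library was again siQk replicate 2, while siQk replicates 1 and 3 lay just under the siNC range. The log2 difference was 0.29 (SE 0.42) with that library and -0.24 without it. Counts ran from 132 to 365 per library. The gene (Entrez 19219) lies at chr15:5206661-5244187 on the minus strand, and 1097 of its 6648 annotated exon bases (16.5%) are also exon on the other strand. The deposited counts cover a shorter model of 2966 exon bases, and whether it includes the shared bases is not known. Its level is thus uncertain in the same way. Ptger2 had 0 counts in every library, below a floor of 0.0149 to 0.0185 RPKM, and Ptger3 had 2 counts, both in siNC replicate 2.

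Ptges, the membrane-bound prostaglandin E synthase that is usually induced with COX-2, was the lowest of the detected genes. It was at 0.501, 0.521 and 0.242 RPKM in siNC and 0.415, 0.410 and 0.464 RPKM in siQk, from 38 to 93 counts per library. The groups overlapped, and the log2 difference was 0.0090 with a standard error of 0.33. Ptges (Entrez 64292) lies at chr2:30889471-30929863 on the minus strand.

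Of the 10 genes, 6 had a count in every library and passed the filter of the test, 3 with a lower and 3 with a higher value in siQk. The quasi-likelihood test called 0 of them in either direction, beside 0.00790% of all genes tested. At an unadjusted p under 0.05 it listed 2 (Ptgir and Pla2g2e) as lower and 0 as higher, beside 1.69% and 1.20% of all genes. The groups did not overlap for the same 2, both lower, and for 0 higher, beside 4.07% and 4.45%. The Wald test of DESeq2, run as an alternative, called these 2 lower, beside 0.126% of 12664 genes, and the edgeR exact test called 0. Because the set was picked on this contrast, these counts describe the choice and nothing is read from them.

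**Figure D2:**
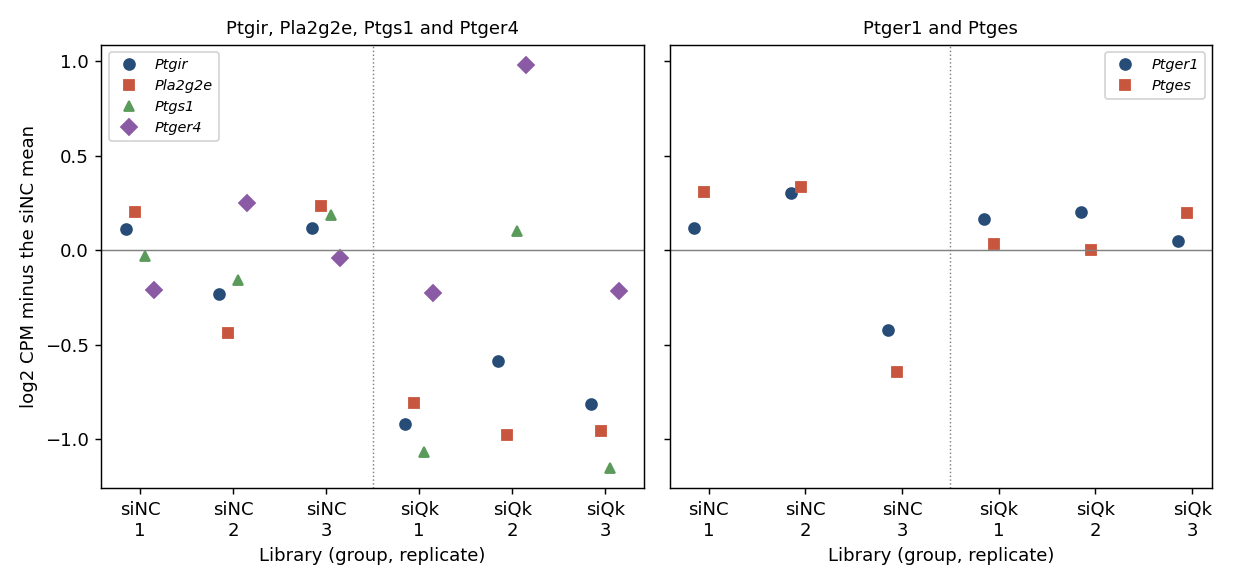
Log2 level of the same 6 genes in every library, as the difference from its siNC mean in TMM-scaled log2 CPM. Ptgir and Pla2g2e sit between -0.58 and -0.98 in the 3 siQk libraries, whereas Ptgs1 sits near -1.07 and -1.15 in replicates 1 and 3 and at 0.10 in replicate 2, where Ptger4 stands at 0.98.

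The genes of the set did not share a single pattern over the libraries. On TMM-scaled log2 CPM the Pearson correlation over the 6 libraries was 0.933 for Ptgir with Pla2g2e and 0.806 for Ptgir with Ptgs1, against 0.600 for Ptgs1 with Pla2g2e. Ptger1 went with Ptges at 0.891. Ptger4 was nearly unrelated to Ptgir, at -0.062. All of these coefficients share the same 6 libraries and include the difference between the groups, so they are given as a description.

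By RPKM, which is per exon length, the order in siNC was Ptgir, Ptgs1, Pla2g2e, Ptger1, Ptger4 and Ptges, and no neighbours in that order had overlapping ranges. The order of the means was the same in siQk. There, however, Ptgir and Ptgs1 did not differ beyond their spread, with ranges of 33.1 to 42.1 and 22.1 to 53.5 RPKM. The ratio of the mean levels of Ptgir and Ptgs1 was 1.27 in siNC and 1.12 in siQk, and without siQk replicate 3 the latter was 0.976.

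Ptgir held most of the prostanoid receptor RNA in this line. It made up 85.1%, 81.9% and 87.4% of the summed RPKM of the 9 receptor genes in siNC, and 75.1%, 75.3% and 77.7% in siQk. The sum ran from 44.0 to 78.8 RPKM. Ptger1, whose level is uncertain for the reason given above, was next at 5.65% to 15.1%. Ptgdr2, a prostaglandin D2 receptor, held 2.16% to 3.70%, and Ptgfr, the prostaglandin F receptor, 1.50% to 3.56%. Tbxa2r, the thromboxane receptor, held 0.142% to 2.37%, and Ptgdr had 0 counts. The order of Ptgir over all other receptors thus held in each of the 6 libraries.

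**Figure D3:**
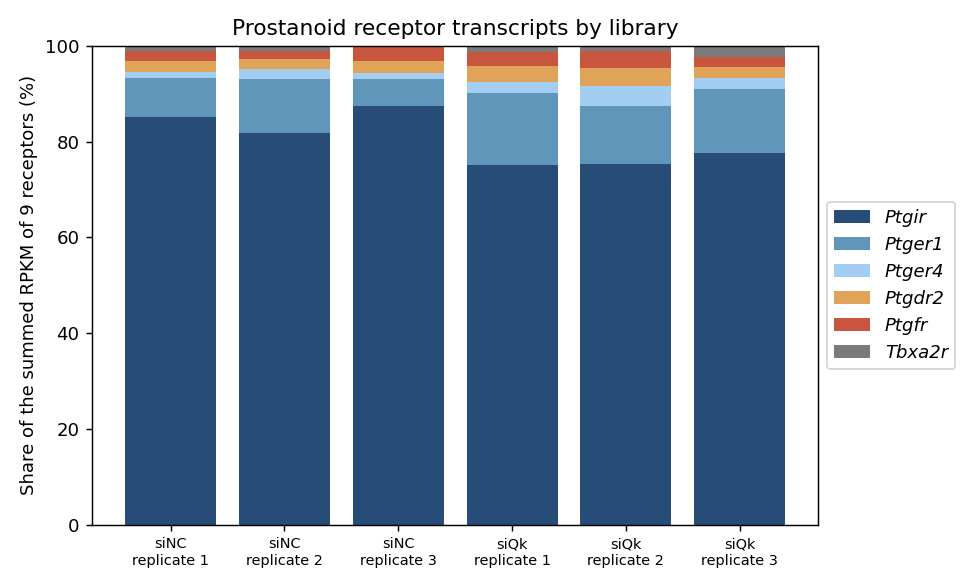
Share of each receptor gene in the summed RPKM of the 9 prostanoid receptor genes (percent), with 1 bar per library. Ptgir fills 81.9% to 87.4% of the bars in siNC and 75.1% to 77.7% in siQk, and Ptger1 is the next largest piece in every bar.

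Among 22 phospholipase A2 genes, Pla2g2e held 29.1%, 19.8% and 31.6% of the summed RPKM in siNC and 16.5%, 15.4% and 14.1% in siQk. The other large shares belonged to Pla2g6, a calcium-independent enzyme (18.3% to 38.1%), Pla2g12a, a secreted one (22.3% to 27.7%), and Pnpla8, a calcium-independent one of membranes (11.2% to 17.7%). Ptges held only 0.201% to 0.525% of the RNA of the 3 prostaglandin E synthases. Ptges3, the cytosolic synthase that is also the HSP90 co-chaperone p23, held 80.8% to 91.0%, and Ptges2 the rest. Ptgis, the prostacyclin synthase, was at 1.13 to 2.69 RPKM over the 6 libraries, so the ligand-making enzyme of the prostacyclin branch was far below its receptor by this measure.

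The other genes of the pathway were read from 8 lists of textbook members. Of 104 listed genes, 66 were tested, 23 with higher and 43 with lower values in siQk, with a median log2 difference of -0.072. Over all 12665 genes, 6438 were higher and 6227 lower, with a median of 0.0034. The quasi-likelihood test called 0 of the 66, beside 0.00790% of all genes. The Wald test of DESeq2 and the edgeR exact test also called 0 of the 66, beside 19 and 5 genes over all tested. An unadjusted p under 0.05 was found for 3 lower and 0 higher, beside 1.69% and 1.20% of all genes. By list, 1 of 3 tested other receptors had a higher value, 1 of 6 other synthases, 2 of 4 transport and breakdown genes, 4 of 7 other phospholipases A2, 3 of 8 genes of other arachidonate release and reacylation, and 1 of 2 genes of the lipoxygenase branch. Downstream of the receptors, 6 of 19 cyclic AMP genes (median -0.14) and 5 of 17 Gq and Gi genes (median -0.11) had a higher value.

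**Figure D4:**
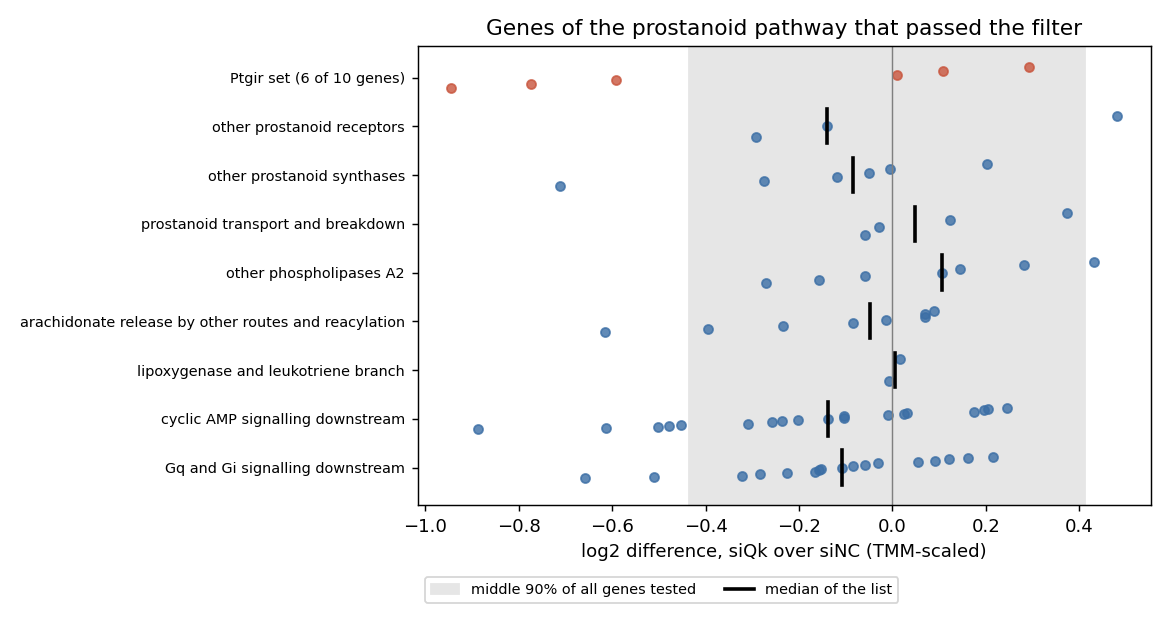
Log2 difference of siQk over siNC for each tested gene of the set (top line) and of 8 lists of other pathway genes, with a tick at the median of each of the 8 lists and a grey band over the middle 90% of all genes tested (-0.43 to 0.41). Ptgir (-0.77), Pla2g2e (-0.95) and Ptgs1 (-0.59) lie left of the band and the other 3 genes of the set lie inside it.

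The most abundant genes of the other lists mostly differed little between the groups. Pla2g6 was at 35.6 ± 13.6 RPKM in siNC and 43.7 ± 2.70 RPKM after knockdown (log2 difference 0.28, which was 0.051 without siNC replicate 3 and 0.57 without siNC replicate 2), and Pla2g12a at 32.2 ± 4.20 and 31.5 ± 2.88 RPKM (log2 difference -0.058). Ptges3 was at 100.9 ± 14.8 and 94.8 ± 21.5 RPKM, and Ptges2 at 13.8 ± 0.994 and 14.0 ± 2.95 RPKM. Acsl4, which loads arachidonic acid onto coenzyme A, was at 88.5 ± 8.63 and 84.7 ± 24.4 RPKM, and Lpcat3, which puts it back into phospholipids, at 34.9 ± 4.93 and 37.2 ± 2.10 RPKM. Cbr1, a carbonyl reductase that acts on prostaglandins, was at 40.0 ± 4.89 and 44.2 ± 3.11 RPKM, and Lta4h, the leukotriene A4 hydrolase, at 40.4 ± 2.41 and 40.9 ± 4.68 RPKM (all SD, n = 3). Ptgr2, a prostaglandin reductase, was at 20.8 ± 2.27 and 20.8 ± 3.73 RPKM, and Alox5ap, the partner of 5-lipoxygenase, at 3.36 ± 1.05 and 3.44 ± 1.21 RPKM. Among receptors and their G proteins, Ptgdr2 was at 1.67 ± 0.213 and 1.54 ± 0.493 RPKM, Ptgfr at 1.67 ± 0.632 and 1.40 ± 0.546 RPKM, and the Gi alpha subunit genes Gnai2 and Gnai3 at 211.6 ± 14.7 and 199.9 ± 15.4 RPKM and at 66.0 ± 12.7 and 60.4 ± 15.4 RPKM. Each of these differences was smaller than the larger SD of its pair.

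The 3 genes with an unadjusted p under 0.05 all had lower values in siQk, and none passed the adjustment over all genes (adjusted p = 0.9996 for each, edgeR quasi-likelihood test). Prkar1a, the regulatory subunit that keeps protein kinase A inactive until cyclic AMP binds it, was at 570.1, 511.3 and 619.9 RPKM in siNC and 453.5, 401.8 and 412.6 RPKM in siQk, with no overlap (log2 difference -0.45, SE 0.12, unadjusted p = 0.0122). Itpr3, an inositol trisphosphate receptor that releases stored calcium, was at 1.10, 1.33 and 0.856 RPKM in siNC and 0.778, 0.706 and 0.625 RPKM in siQk, with no overlap (log2 difference -0.66, SE 0.18, unadjusted p = 0.0202). Dagla, a diacylglycerol lipase that opens another route to arachidonic acid, was at 5.17, 5.75 and 5.25 RPKM in siNC and 4.19, 2.13 and 4.40 RPKM in siQk, with no overlap (log2 difference -0.61, SE 0.34, unadjusted p = 0.0453). Its lowest library was siQk replicate 2, the library in which Ptgs1 and Ptger4 were highest, and without it the log2 difference was -0.35.

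The groups did not overlap for 6 of the 66 genes, all lower in siQk and 0 higher, beside 4.07% of all tested genes lower and 4.45% higher. Besides these 3 they were Gnas, which encodes the Gs alpha subunit that Ptgir couples to, and Pde4a and Itpr2, both named here after their values were seen. Gnas was at 217.7, 199.0 and 183.1 RPKM in siNC and 172.7, 184.7 and 172.8 RPKM in siQk. In RPKM the lowest siNC library was thus just under the highest siQk library, and the groups separated only on the TMM-scaled values that the count uses (log2 difference -0.20, unadjusted p = 0.161). Pde4a, a cyclic AMP phosphodiesterase, was at 1.72 ± 0.439 and 1.25 ± 0.283 RPKM, and Itpr2, another inositol trisphosphate receptor, at 0.922 ± 0.124 and 0.769 ± 0.00969 RPKM (SD, n = 3). Their gaps in RPKM were narrow. The lowest siNC and highest siQk libraries were at 1.47 and 1.44 for Pde4a, and at 0.781 and 0.776 for Itpr2.

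Quaking binds RNA at a core that reads ACTAAC or ACTAAT in DNA letters, and these letters were counted in the longest protein-coding transcript of each detected gene (GENCODE M21, GRCm38, transcript strand only). Among the searched genes of the set, only Ptger4 held a match, at 2 places. Ptger2, Ptger3, Ptgs2 and Pla2g4a were not searched. The matches are shown with the core in capitals and 12 bases on each side. They lie in the 5′ UTR at chr15:5243147-5243152 and in the 3′ UTR at chr15:5234066-5234071, both on the minus strand.
Ptger4 5′ UTR: acgctgtgtgttACTAACcaccaccatcat
Ptger4 3′ UTR: aaacagagtgaaACTAATatctataaaata

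The longest transcripts of Ptgir (3305 bases), Ptgs1 (2867 bases), Pla2g2e (854 bases), Ptger1 and Ptges held 0 matches. Among transcripts within 10% of the same length, 48.7% held a match for Ptger4 and likewise for Ptgir, 42.8% for Ptgs1 and 13.2% for Pla2g2e. The shares were 61.1% for Ptger1 and 53.6% for Ptges. The transcript of Qk itself held 7, where 84.5% of transcripts of like length held at least 1. A count of 0 says that these letters are not in the mature transcript model, and introns were not searched.

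Over all 12664 other genes tested, the 5 whose TMM-scaled log2 CPM followed Ptgir most closely over the 6 libraries were Tgm4 (Pearson r 0.982), Dyrk4 (0.979), Tor3a (0.974), 2810055F11Rik (0.971) and Fosl2 (0.971). Their log2 differences of siQk over siNC were -1.20, -0.52, -0.40, -1.77 and -0.53. The 3 most opposite were Eny2 (r -0.975), Gapdh (-0.970) and Zfp105 (-0.969), with log2 differences of 0.34, 0.32 and 0.20. Gapdh, the internal control of the study's qRT-PCR, had a mean log2 CPM of only 2.82 here, against 6.90 for Eny2. The cause of that low count was not tested, so the Gapdh value is uncertain. With 6 libraries and this many genes, such coefficients are found readily, and they are given only to name the genes.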

How the data were processed

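Messenger RNA of NSC-34 cells was measured in 3 siNC and 3 siQk libraries. Per the labels, the authors selected poly-A RNA, used a TruSeq version 2 kit and name the mm10 build, and per the methods they aligned the read pairs with OLego and counted them with Quantas. The authors deposited 1 file per library with an expected count, an exon length and an RPKM value for each gene. The deposited expected counts were not whole for 21.9% to 22.9% of genes and were rounded here. The deposited RPKM values equal the expected count divided by exon length and by the sum of the library's counts, and no column holds a comparison by the authors. No column was left unmapped.

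TMM factors ran from 0.957 to 1.02, and the 12665 genes with a mean log2 CPM above 0 were fitted with the quasi-likelihood test of edgeR 4.0.16 (limma 3.58.1, R 4.3.3), siQk against siNC, with no other term. A gene was called when p was under 0.01 and the p adjusted by Benjamini-Hochberg over these genes under 0.1, the cutoffs of the study. Standard errors of log2 differences come from TMM-scaled log2 CPM with a prior count of 2. Floors of 3 counts cover counting error only. The labels call the 3 libraries of a group biological replicates. P-values measure the spread between these cultures, which in siQk also holds any difference between the 3 siRNAs. No pair of libraries was alike enough to count as 1 library. Positions come from GENCODE M21 (GRCm38) and promoters from RefSeq (GRCm38.p6). The model the authors counted over is not given in the sources used here.

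The 10 genes and all lists were chosen with earlier results of these data known. Named were the 10 genes, Qk, in each pathway list the 2 genes of highest mean RPKM and those called or with an unadjusted p under 0.05, and the 5 genes most and 3 genes least like Ptgir. Of the pathway genes, 2 were matched through older symbols. Alternatives were DESeq2 1.42.0 (size factors, Wald test), total counts, the edgeR exact test, no filter, filterByExpr at a minimum count of 10, a prior count of 0.5, a replicate block and leaving out each library. The fit was tested on simulated data.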

Additional observations from a re-analysis of the deposited data

How the results depend on the processing

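The log2 differences of Ptgir and Pla2g2e kept their direction in every alternative run. Leaving out each library in turn gave -0.89 to -0.70 for Ptgir, -1.14 to -0.83 for Pla2g2e, -1.12 to -0.38 for Ptgs1, -0.24 to 0.50 for Ptger4, -0.074 to 0.26 for Ptger1 and -0.25 to 0.16 for Ptges. Ptger1 and Ptges were negative without siNC replicate 3, Ptges also without siQk replicate 3 (-0.058), and Ptger4 without siQk replicate 2. The other alternatives gave -0.78 to -0.75 for Ptgir. The ratio of Ptgir to Ptgs1 ran from 1.21 to 1.30 in siNC and from 0.976 to 1.50 in siQk, 1.50 being the value without siQk replicate 2. Qk ran from -3.19 to -2.67, and without siNC replicate 1 it was -3.09 with an adjusted p of 0.125, no longer past the threshold. Genes called were 19 with the DESeq2 Wald test and 5 with the edgeR exact test against 1 in the quasi-likelihood test, and 0 to 1 when a library was left out. Genes of the set called were 2 with DESeq2 and 0 otherwise. Pathway genes with an unadjusted p under 0.05 were 3, against 6 without a filter, 5 with DESeq2, 5 with the exact test and 2 to 4 when a library was left out. The causes were not tested.

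The titles give both groups replicate numbers 1 to 3. Deviations from the group mean correlated at 0.213, 0.018 and -0.170 for libraries of the same number, and no pairing was assumed. With the replicate block, 1 gene was called, 0 of them in the set, the log2 difference of Ptgir was -0.77, and 5 pathway genes had an unadjusted p under 0.05. Precision is set by 3 libraries a group, and genes near 0 counts could not be compared at this depth.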
